A study of Mus musculus with 30 samples.

Results

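Adult neurogenesis in the mouse forebrain runs from stem cells to transit-amplifying cells to neuroblasts, and 9 genes long used to mark or drive its first 2 stages were followed here by their symbols: Nes, Egfr, Sox2, Hes1, Hes5, Pax6, Prom1, Ccnd1 and Ccnd2. They were 9 of the 53278 genes counted in the subventricular zone (SVZ) and 9 of the 50508 counted in the striatum, and all 9 passed the filter on low counts (over 1 CPM, the read count scaled to library size, in at least 3 libraries) in both tissues. RNA came from the same 15 C57Bl/6 mice for both tissues, and each mouse gave 1 library of each. The NestinTK transgene places the thymidine kinase of herpes simplex virus under the second intron enhancer of the rat Nestin gene, so that dividing cells that use this enhancer are killed by ganciclovir (GCV). The ablated group held 5 transgenic mice given GCV (NestinTK+GCV+). The controls were 4 transgenic mice given the vehicle, phosphate-buffered saline (NestinTK+PBS+), 3 wild-type littermates given GCV (NestinTK-GCV+) and 3 wild-type littermates given the vehicle (NestinTK-PBS+). GCV or vehicle was delivered for 4 weeks from a pump under the skin, and the methods of the study name male and female mice of 6 to 8 weeks of age. The comparisons ask how removal of Nestin-expressing precursors altered the genes of these precursors in the SVZ, and whether the same genes differed in the neighbouring striatum.

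In the SVZ, stem cells are astrocyte-like cells that line the ventricle wall. They divide rarely and give rise to rapidly dividing transit-amplifying cells that carry the EGF receptor, Egfr. Nes (an intermediate filament protein) and Sox2 (a transcription factor that maintains stem cells) are used to mark the early stages of this lineage. Notch signalling holds cells in the stem state by inducing the transcriptional repressors Hes1 and Hes5, while the D cyclins Ccnd1 and Ccnd2 carry cells through the G1 phase of the cell cycle. Prom1 (the membrane glycoprotein CD133) marks stem and ependymal cells, and Pax6 is a transcription factor of progenitors that form particular olfactory interneurons. Sox2, Hes5, Ccnd1 and Ccnd2 are also expressed outside the lineage, in glia and in some neurons. That list is not complete, and Hes1, Egfr and Prom1 were also counted in the striatum, at means of 10.1, 7.76 and 10.3 CPM over its 15 libraries. RNA from dissected tissue thus does not report on the precursors alone.

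Libraries of the SVZ held 8360810 to 9595103 counts in the ablated mice and 8947137 to 21056005 in the controls, and libraries of the striatum 2626962 to 3371033 and 2780471 to 4693441. The labels call the SVZ samples neural precursor cells, while the methods describe dissected tissue, and 12 markers of medium spiny neurons summed to between 4748 and 14829 CPM there. The choroid plexus gene Ttr took over 1% of the counts in 3 SVZ libraries, all of them controls (NestinTK+PBS+ replicate 1 and NestinTK-PBS+ replicates 1 and 2), and up to 9.88%. Mitochondrial transcripts took 13.1 to 17.0% of the SVZ counts in the ablated mice and 6.69 to 15.2% in the controls. In the striatum 1 library stood apart, that of NestinTK+PBS+ replicate 4: its medium spiny neuron markers summed to 5714 CPM against 11087 to 14911 in the other 14, and its 10 choroid plexus markers to 2095 CPM against 139 to 306. The striatal Ccnd2 results, which this library moves, are given with and without it, a choice made after seeing the data. Library numbers in the labels ran from GCV to vehicle, so library number and GCV cannot be told apart. Fewer cells of a type and less RNA per cell cannot be told apart in any of these values.

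Levels can be ordered between genes in the SVZ, where whole transcripts were sequenced, as CPM per kb of merged exons. In the 10 control mice the order of mean levels was Ccnd2 (31.0 ± 9.13 CPM per kb, SD), Sox2 (27.7 ± 7.32), Hes5 (19.1 ± 11.9), Hes1 (5.13 ± 3.24), Ccnd1 (3.37 ± 1.82), Egfr (2.13 ± 0.718), Prom1 (1.51 ± 0.926), Nes (1.5 ± 0.443) and Pax6 (1.00 ± 1.03). The step from Hes5 to Hes1 was the single step in this order larger than the SDs of both neighbours, so the genes fell into an upper set of Ccnd2, Sox2 and Hes5 and a lower set of the other 6. Nes, after which the transgene is named, was thus among the least abundant of the 9 genes in this tissue.

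In edgeR's quasi-likelihood test, a gene was called where the fold was 2 or more and the unadjusted p did not exceed 0.01, the thresholds of the study. Adjusted p values are Benjamini-Hochberg values over all genes tested in the tissue and comparison. Of the 9 genes, 1 was called in the SVZ of the ablated mice: Hes1 fell. Over all 16375 genes tested in the SVZ, 1.22% were called lower and 0.373% higher, and 1 gene, none of the 9, had an adjusted p under 0.05, which is 0.00611%. Ccnd2 was past the p threshold but under 2-fold, as 1.51% of all genes were lower at that p with any fold. The other 7 were not called, with 3 of them lower and 4 higher in the ablated mice. The median log2 fold change of the 9 was -0.09, beside -0.03 over all genes tested. An unadjusted p under 0.05 was found for 2 of the 9 (Hes1 and Ccnd2), beside 1607 of the 16375 genes tested. DESeq2 and limma-voom also called 1 of the 9.

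Hes1 lies on chromosome 16 (chr16:30064384-30067796, plus strand, mm10). Its level in the 5 ablated SVZ libraries was 1.56, 5.44, 1.10, 1.28 and 0.372 CPM, and in the controls it ranged from 2.53 to 22.8 CPM with a median of 8.63. Of the 5 ablated mice, 4 were below all 10 controls, and replicate 2 overlapped them. These levels rest on 3 to 39 counts per ablated library and 23 to 298 per control library. The log2 fold change was -2.42 ± 0.758 (SE), a 5.34-fold lower level with a 95% interval of -4.00 to -0.84 on the log2 scale (edgeR, adjusted p = 0.357, with a range of 0.0312 to 0.999 over all alternatives run). Each of the control groups on its own gave a similar fold (log2 -2.08, -2.56 and -2.53 against NestinTK-GCV+, NestinTK-PBS+ and NestinTK+PBS+ alone), but none of these smaller fits called it. The call was also lost without ablated replicate 1, 3, 4 or 5 or NestinTK-PBS+ replicate 1, with log2 fold changes between -2.34 and -2.15.

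**Figure D1:**
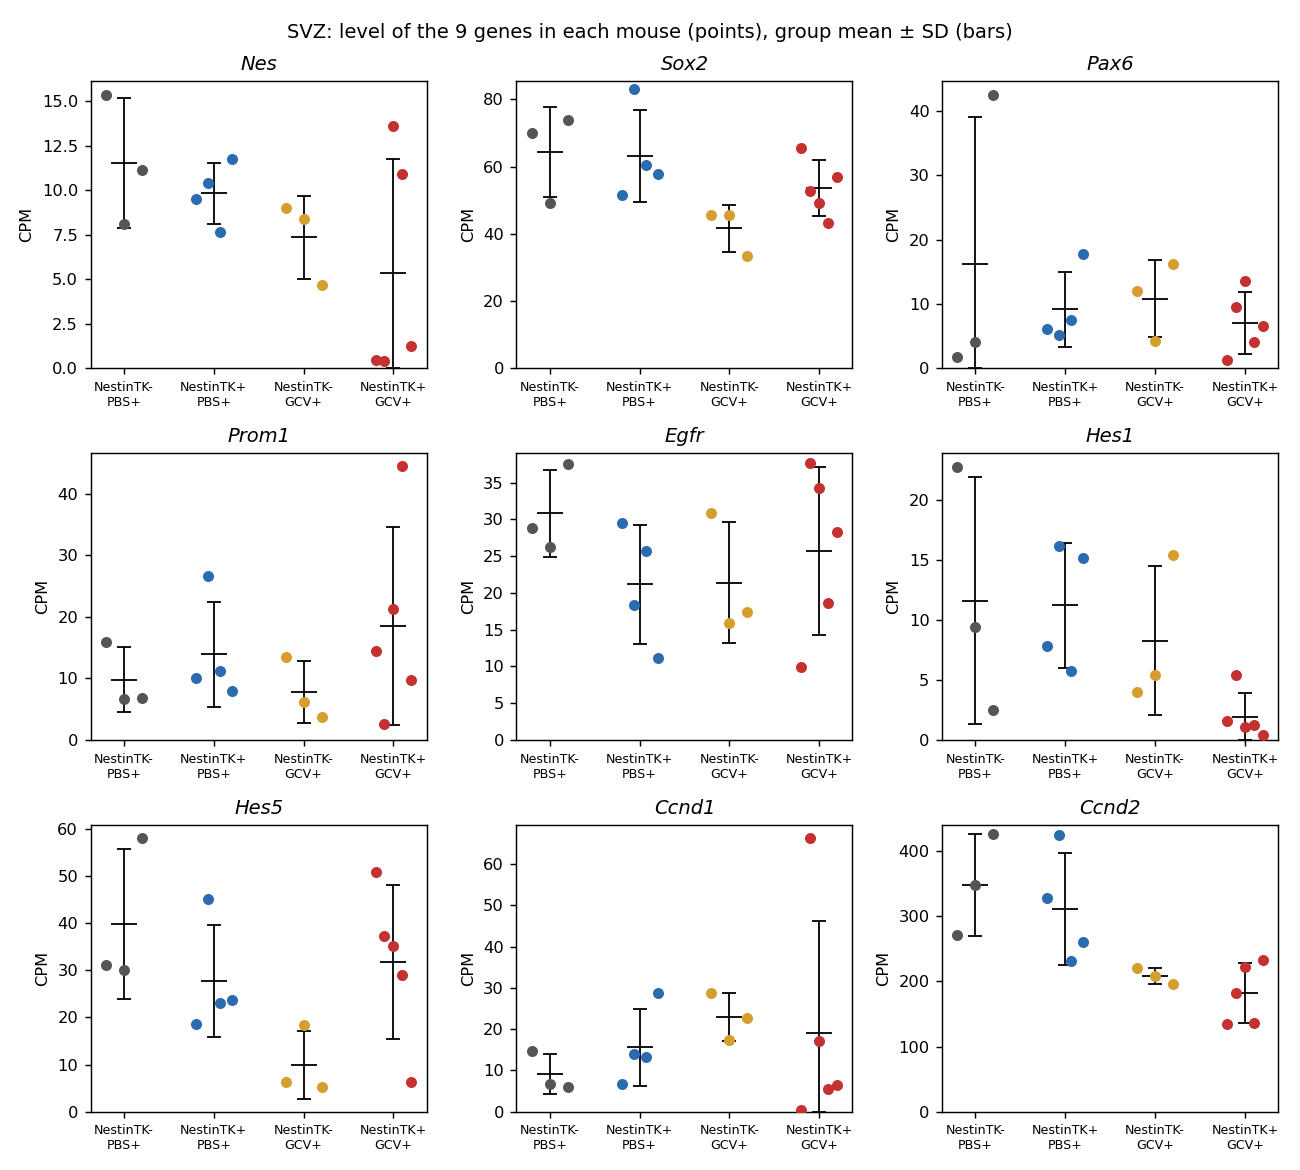
Level (CPM, linear axis from 0) of the 9 genes in the SVZ of each mouse, by group. Points are mice, and horizontal ticks with bars are the group mean ± SD, with the lower bar stopped at 0. Hes1 lies between 0.372 and 5.44 CPM in the NestinTK+GCV+ mice, Nes falls into a low and a high cluster there, and Ccnd2 is lower in both GCV-treated groups.

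Ccnd2 (chr6:127125162-127152193, minus strand) is a D cyclin needed for the division of adult-born neuronal precursors. Its SVZ level was 134, 182, 223, 137 and 232 CPM in the ablated mice and 196 to 426 CPM, with a median of 266, in the controls. All 5 ablated mice were below the control median, and 3 of them were below every control. The log2 fold change was -0.68 ± 0.212 (SE; 95% interval -1.13 to -0.24; edgeR, adjusted p = 0.354). Among the 9 genes Ccnd2 had the lowest spread between mice in the SVZ, with a biological coefficient of variation of 0.284 against a median of 0.686 over all genes tested, and Sox2 followed with 0.301. A gene on the opposite strand, 9330179D12Rik, covers part of its exons, 7.87% of the bases with another such gene, and had 0 to 56 counts per SVZ library. With the wild-type GCV mice as the only controls the log2 fold change of Ccnd2 was -0.20 (edgeR, adjusted p = 0.999).

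Ccnd1 (chr7:144929931-144939925, minus strand), the other D cyclin of the set, behaved differently from mouse to mouse. Its biological coefficient of variation in the SVZ was 0.860, between the median of 0.686 and the common value of 0.939 over all genes tested. The ablated mice had 0.36, 66.3, 17.0, 5.45 and 6.57 CPM, which are 3 counts in replicate 1 and 475 in replicate 2. Controls ranged from 5.95 to 28.8 CPM. The highest and the lowest of all 15 levels were both in ablated mice. The log2 fold change was 0.27 ± 0.695 (95% interval -1.19 to 1.72), and it was -1.10 (edgeR, adjusted p = 0.634) without replicate 2. The Ccnd2 to Ccnd1 count ratio ran from 2.75 to 373 in the ablated mice, the latter over those 3 counts of Ccnd1, and from 7.67 to 71.6 in the controls. Exons of Ccnd1 share 23.4% of their bases with a gene on the opposite strand, Oraov1, and no source used here states whether counting used strand. Oraov1 itself had 0 to 296 counts per SVZ library and a log2 fold change of -0.00.

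Nes (chr3:87971078-87980451, plus strand) fell into a low and a high cluster among the ablated mice. Its biological coefficient of variation in the SVZ was 0.873, between the median of 0.686 and the common value of 0.939 over all genes tested. A spread of this size was thus not particular to Nes. Its SVZ level was 0.480, 0.418 and 1.24 CPM in replicates 1, 2 and 5 and 13.6 and 10.9 CPM in replicates 3 and 4, that is 4, 3 and 10 counts against 111 and 102. The 10 controls held 4.70 to 15.4 CPM, with 62 to 201 counts. So 3 ablated mice were below every control and 2 were above the control median of 9.24 CPM, with no ablated mouse between the lowest control and that median. The log2 fold change over the 5 mice was -0.85 ± 0.737 (95% interval -2.39 to 0.69; edgeR, adjusted p = 0.782), an interval that holds both no change and a 4-fold lower level. Limma-voom gave a log2 fold change of -2.01 (adjusted p = 0.605). Counts of Nes come from the endogenous gene, since the transgene carries an enhancer of the rat gene. Of the 3 mice low in Nes, replicate 1 had the lowest Ccnd1, Ccnd2, Egfr and Pax6 of the ablated mice and the highest Sox2 and Hes5. Replicate 2 had the lowest Prom1 and the highest Ccnd1, Egfr and Hes1, and replicate 5 had the lowest Hes1 and Hes5 and the highest Ccnd2.

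The other stem cell markers overlapped between the groups. Sox2 (chr3:34650405-34652461, plus strand) was at 43.3 to 65.4 CPM in the ablated mice and 33.5 to 83.0 CPM in the controls, and its narrow interval (log2 fold change -0.09, 95% interval -0.54 to 0.36) holds no 2-fold change in either direction. Pax6 (chr2:105668900-105697364, plus strand) was at 1.32 to 13.6 CPM against 1.76 to 42.5 CPM (log2 fold change -0.74 ± 0.714). Prom1 (chr5:43993620-44102032, minus strand) was at 2.65 to 44.6 CPM against 3.72 to 26.6 CPM (0.77 ± 0.550), and the highest of the 15 levels was that of ablated replicate 4. Egfr (chr11:16752203-16918158, plus strand), the receptor of the activated and transit-amplifying stages, was at 9.96, 37.7, 34.3, 18.6 and 28.3 CPM in the ablated mice and at 11.2 to 37.5 CPM in the controls, with a log2 fold change of 0.09 (95% interval -0.64 to 0.82). For Pax6, Prom1 and Egfr these intervals do not show that the groups were alike.

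**Figure D2:**
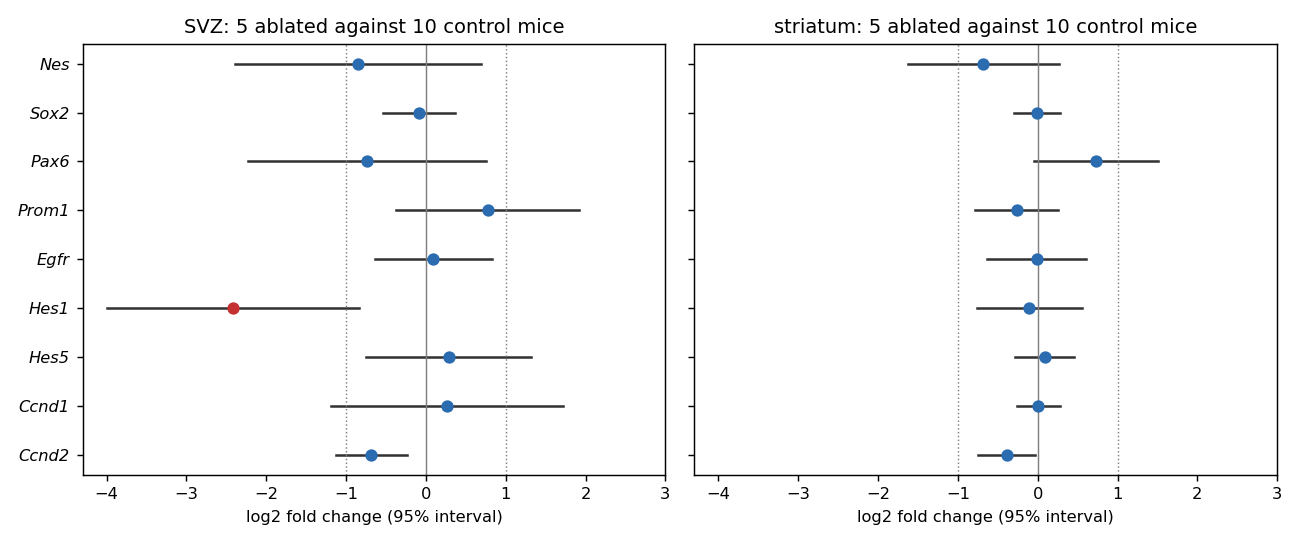
Log2 fold change of each gene in the 5 ablated against the 10 control mice, in the SVZ (left) and the striatum (right), with 95% intervals from edgeR's quasi-likelihood fit. The dotted lines mark a 2-fold change in either direction, and the red point is the gene called, Hes1 in the SVZ at -2.42. Intervals in the striatum are narrower for every gene.

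Hes5 (chr4:154960923-154962371, plus strand) is, like Hes1, induced by Notch through the DNA-binding protein RBPJ. The 250 bases before its RefSeq start site (GRCm38.p6, chr4:154960673-154960922, plus strand) are shown because they hold the RBPJ core TGGGAA, searched on both strands, at 2 places, which are in capitals and begin 226 and 82 bases before the start.
Hes5 upstream: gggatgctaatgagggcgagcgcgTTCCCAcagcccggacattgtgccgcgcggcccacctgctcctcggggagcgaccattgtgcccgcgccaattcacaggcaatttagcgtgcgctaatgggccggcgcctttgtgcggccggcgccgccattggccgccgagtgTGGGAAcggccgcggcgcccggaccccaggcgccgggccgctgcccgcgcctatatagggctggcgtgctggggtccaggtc
The same letters were in 21.6% of 32851 upstream windows of this length, and among the other members with an entry (Nes, Egfr, Sox2, Pax6 and Prom1) they were found in 1 window of Prom1. Such a match is a description of the sequence and not of binding.

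In the SVZ, Hes5 was at 50.8, 37.2, 35.2, 29.0 and 6.20 CPM in the ablated mice and at 5.23 to 58.1 CPM, with a median of 23.4, in the controls. The log2 fold change was 0.29 ± 0.495 (95% interval -0.75 to 1.32), so Hes5 was not called in the mice in which Hes1 was called lower. The Hes5 to Hes1 count ratio was 6.85 to 32.5 in the ablated mice, with a median of 22.6, and 0.340 to 22.9 in the controls, with a median of 2.59. It rests on 3 to 39 Hes1 counts per ablated library and is not independent of the Hes1 values above. A gene on the opposite strand, Gm20421, covers 31.8% of the Hes5 exon bases, but it had at most 3 counts in any SVZ library and 0 in the striatum.

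When the SVZ was split into its 4 groups, Hes5 was the 1 gene of the 9 called between the wild-type groups. These groups also differed largely in mouse number series, as given above. NestinTK-GCV+ mice had 6.39, 18.3 and 5.23 CPM and NestinTK-PBS+ mice 31.2, 30.1 and 58.1 CPM. The groups did not overlap, but how many of all genes were separated between groups this small was not counted. The log2 fold change was -2.0 ± 0.663 (95% interval -3.39 to -0.61; edgeR, adjusted p = 0.646), and Hes5 fell by the call rule, as 1.06% of all genes were called in this comparison in either direction. The call was lost without NestinTK-GCV+ replicate 1 or 3 or NestinTK-PBS+ replicate 3, at log2 fold changes of -1.76, -1.69 and -1.62. In transgenic mice the same treatment went with a log2 fold change of 0.20 ± 0.525, and the difference between these GCV effects, the interaction, was 2.20 ± 0.841 (edgeR, adjusted p = 0.942), not called where 0.837% of all genes were. Against NestinTK-GCV+ the ablated mice had higher Hes5 values, with a log2 fold change of 1.67 ± 0.613 (edgeR, adjusted p = 0.665).

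Markers of other tissue moved with the comparison of the wild-type groups. All 10 choroid plexus markers were lower in the GCV mice and 6 were called; they summed to 181 to 624 CPM there, with Aqp1 and Slc4a5 at 0, against 377 to 113770 CPM in the vehicle mice. All 7 markers of meningeal fibroblasts were lower, none of them called, at sums of 5.94 to 10.1 against 19.2 to 103 CPM. All 6 markers of cortical excitatory neurons were higher, 1 of them called, at sums of 11.2 to 636 against 2.75 to 6.15 CPM. All 11 oligodendrocyte markers were higher, none called, at sums of 5050 to 11506 against 4026 to 7697 CPM, and 13 of 15 tested ependymal markers were lower, none called, at sums over the 16 listed of 130 to 456 against 294 to 492 CPM, with Spag6 at 0 in the GCV mice. The part of these markers in the Hes5 result was not tested.

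Ccnd2 values in the SVZ were lower with GCV in both genotypes, by less than 2-fold. NestinTK-GCV+ mice had 221, 208 and 196 CPM and NestinTK-PBS+ mice 271, 348 and 426 CPM. The log2 fold change was -0.74 ± 0.269 (edgeR, adjusted p = 0.646). NestinTK+PBS+ mice had 328, 425, 232 and 261 CPM, and the log2 fold change of the ablated mice against them was -0.78 ± 0.219 (edgeR, adjusted p = 0.618). The interaction was -0.04 (95% interval -0.77 to 0.69), and against the wild-type GCV mice the ablated mice differed by -0.20 (95% interval -0.70 to 0.30). Neither of the GCV effects reached 2-fold, so neither was called. The effect in wild-type mice also missed the p threshold (edgeR, unadjusted p = 0.0132), which that in transgenic mice passed (edgeR, unadjusted p = 0.0023). The GCV effects in the wild-type and in the transgenic mice share no mouse. The interaction and the comparison with the wild-type GCV mice reuse mice of these groups.

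Hes1 was set against each group in the same way. Its log2 fold change was -2.52 ± 0.894 in the ablated mice against NestinTK+PBS+ (edgeR, adjusted p = 0.618), -2.08 ± 0.931 against NestinTK-GCV+ (adjusted p = 0.665) and -0.49 ± 1.05 in the wild-type mice with GCV (adjusted p = 0.98). NestinTK-GCV+ mice had 4.02, 5.40 and 15.4 CPM of Hes1, NestinTK-PBS+ mice 22.8, 9.44 and 2.53 CPM and NestinTK+PBS+ mice 7.82, 16.1, 5.71 and 15.2 CPM. The control groups thus overlapped one another. The interaction for Hes1 was -2.03 ± 1.37 (edgeR, adjusted p = 0.966), so a difference between the GCV effects of the 2 genotypes was not shown.

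EdgeR called no member in the ablated mice against NestinTK-GCV+ or NestinTK+PBS+ alone, in comparisons that called 0.940% and 1.19% of all genes. In each of these comparisons 2 of the 9 had an unadjusted p under 0.05, beside 1220 and 1168 of the 16375 genes tested. There limma-voom called none, and DESeq2 called 1 (Hes5 and Hes1, respectively). Between the vehicle groups edgeR, DESeq2 and limma-voom called none of the 9, with 0.195% of all genes called. None of the 9 had an unadjusted p under 0.05, where 441 of the 16375 genes did. Their log2 fold changes ran from -0.82 for Pax6 to 0.78 for Ccnd1. Sox2 had a log2 fold change of -0.63 ± 0.299 in wild-type mice with GCV (edgeR, adjusted p = 0.653). Its levels were 49.2 to 73.8 CPM in the vehicle group and 33.5 to 45.7 CPM with GCV.

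**Figure D3:**
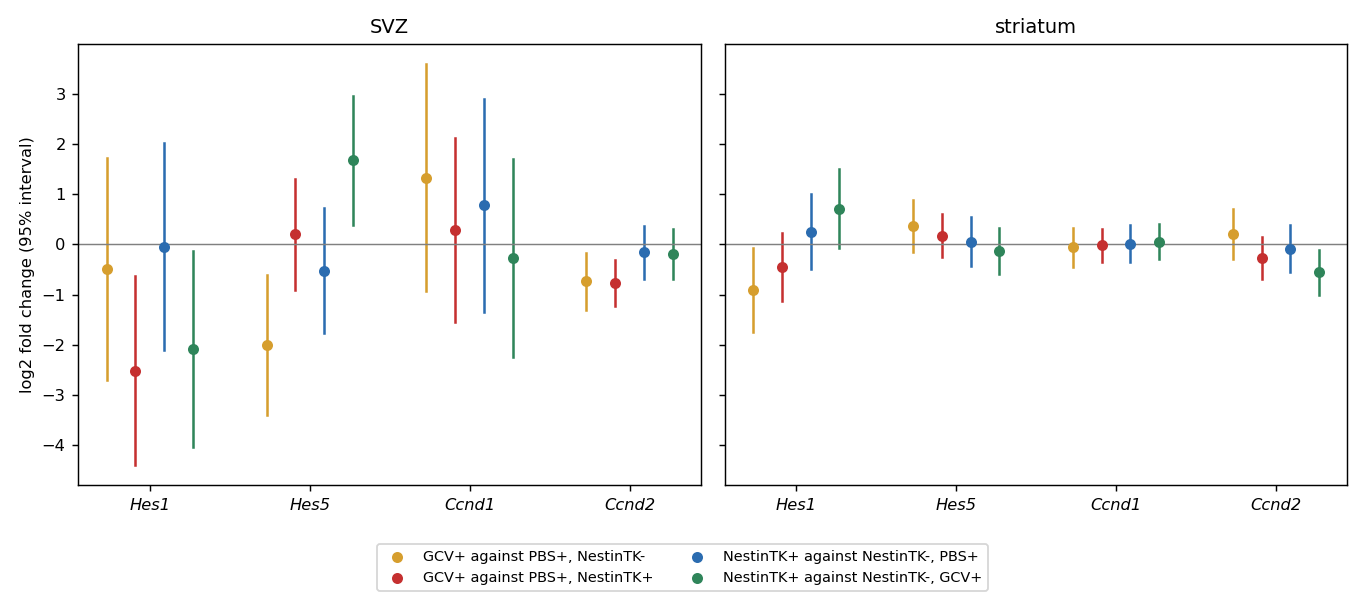
Log2 fold change with 95% interval for the pairs Hes1 and Hes5, and Ccnd1 and Ccnd2, in the 4 comparisons between single groups, in the SVZ (left) and the striatum (right). Ccnd2 lies near -0.75 for GCV in both genotypes of the SVZ (yellow and red), and Hes5 at -2.0 for GCV in wild-type mice alone. Comparisons with a group in common share mice, so the points are not all independent.

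In the striatum edgeR, DESeq2 and limma-voom called none of the 9 genes in the ablated mice. An unadjusted p under 0.05 was found for 1 of the 9 (Ccnd2), beside 1619 of all 15419 genes. Of the 15419 genes tested there, 0.240% were called lower, 0.454% higher, and 0.182% had an adjusted p under 0.05. Libraries there count the 3′ ends of transcripts, so levels are compared only within a gene. Ccnd2 had the lowest p. It was at 381, 257, 373, 293 and 420 CPM in the ablated mice and at 190 to 547 CPM, with a median of 478, in the controls. All 5 ablated mice were below the control median, and 8 of the 10 controls were above every ablated mouse. The 190 CPM were those of NestinTK+PBS+ replicate 4, the library low in medium spiny neuron markers, and the next lowest control was at 399 CPM. With it, the log2 fold change was -0.39 ± 0.172 (edgeR, adjusted p = 0.426). Leaving this library out was chosen after seeing the data and removes the lowest Ccnd2 value. Without it, the log2 fold change was -0.48 (edgeR, adjusted p = 0.0589). Neither fit reached 2-fold, and over all alternatives run the adjusted p ranged from 0.016 to 0.738.

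Among wild-type mice Ccnd2 in the striatum was not lower with GCV. Wild-type mice with GCV had 496, 547 and 480 CPM and wild-type mice with the vehicle 451, 476 and 399 CPM, a log2 fold change of 0.20 ± 0.242 (edgeR, adjusted p = 0.747). The ablated mice against NestinTK-GCV+ gave -0.56 ± 0.214 (edgeR, adjusted p = 0.157, or 0.0102 without the library low in medium spiny neuron markers), where 2.10% of all genes were called. That library is in neither of these groups and enters this fit through the scaling and the estimate of spread that the 4 groups share. Against NestinTK+PBS+ the ablated mice gave -0.27 ± 0.199 (edgeR, adjusted p = 0.708), where 1.35% were called and where the library at 190 CPM is 1 of the 4 controls. Without that library the difference from NestinTK+PBS+ was -0.51 (edgeR, adjusted p = 0.207). All 5 ablated mice were below the 3 wild-type GCV mice, but how many of all genes were separated in this way was not counted. The interaction was -0.47 (95% interval -1.12 to 0.17; edgeR, adjusted p = 0.511), and without the same library it was -0.72 (adjusted p = 0.0451), under 2-fold and so not called. Every fit given here without this library was chosen after seeing the data.

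Markers of other cells moved with these striatal comparisons too, and their part in the Ccnd2 values was not tested. In the ablated mice against the pooled controls all 11 oligodendrocyte markers were lower and 3 had an adjusted p under 0.05, at sums of 2352 to 2998 CPM against 2642 to 6459 CPM, the highest being again NestinTK+PBS+ replicate 4. Against NestinTK-GCV+ alone 9 of these 11 were lower and 2 had an adjusted p under 0.05, with sums of 2642 to 3412 CPM in those controls. In that comparison all 5 tested markers of cortical excitatory neurons were lower and 1 was called, at sums over the 6 listed of 13.7 to 136 CPM against 8.42 to 616 CPM, and 12 of 13 tested ependymal markers were higher and 3 were called, at sums over the 16 listed of 51.4 to 81.3 CPM against 42.0 to 60.6 CPM with Dnah6 at 0. Between the wild-type groups all 5 cortical markers were higher with GCV and 4 were called, and the vehicle mice held 6.97 to 10.7 CPM of the list with Neurod6 and Emx1 at 0. All 11 oligodendrocyte markers were lower with GCV there and 1 was called, and 12 of 13 ependymal markers were lower and 3 were called.

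**Figure D4:**
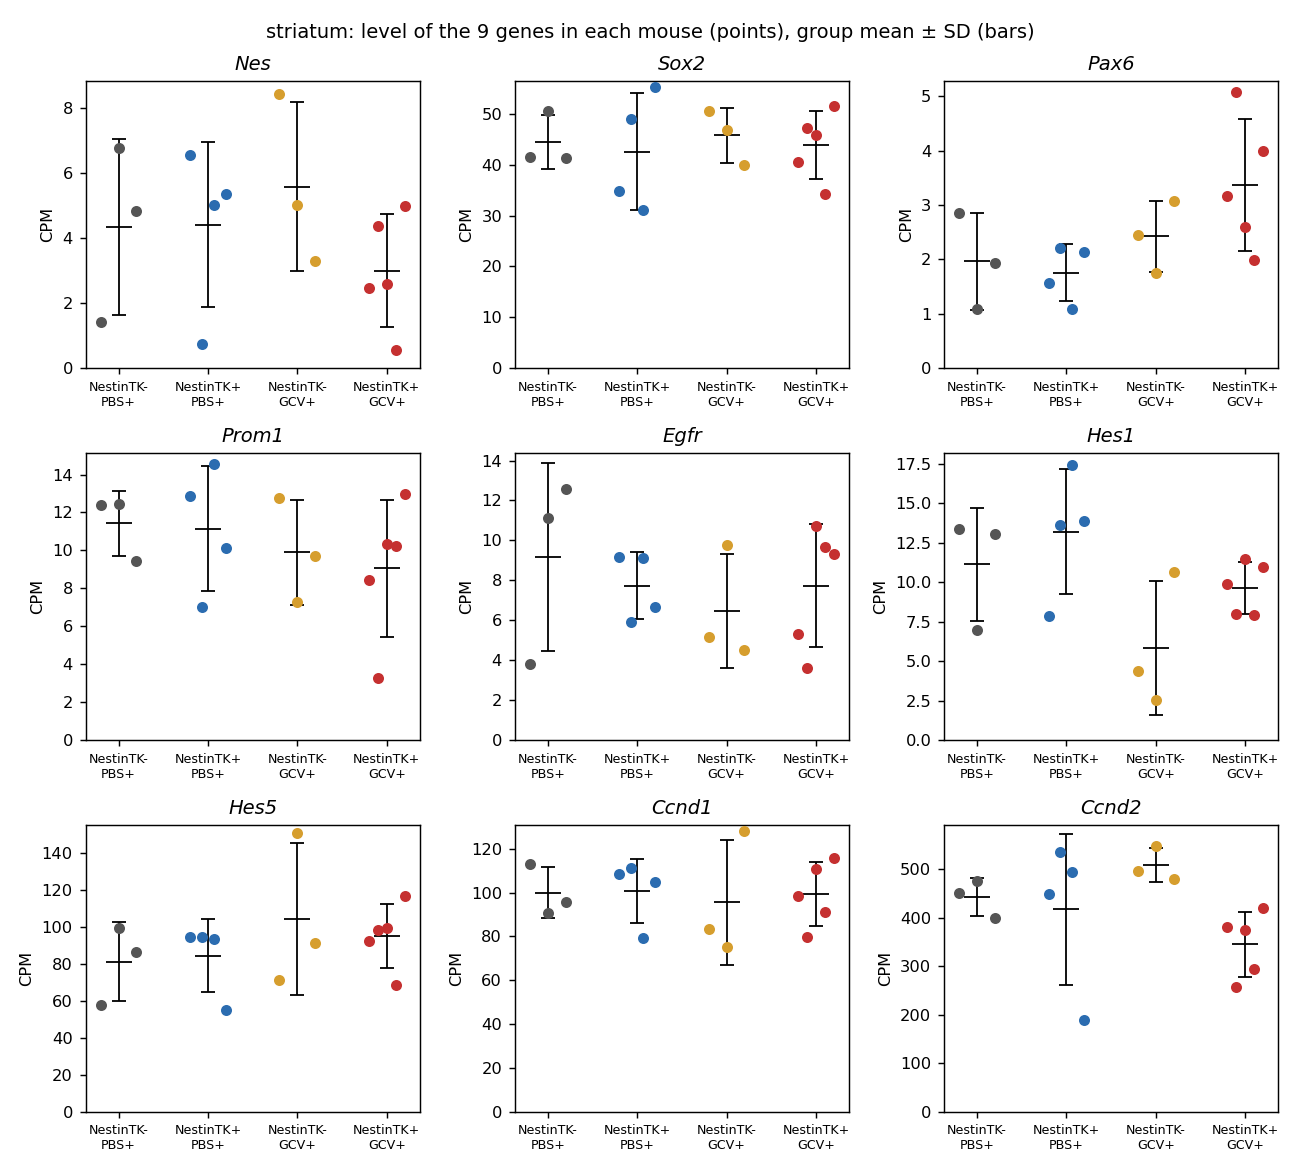
Level (CPM, linear axis from 0) of the 9 genes in the striatum of each mouse, by group, drawn as for the SVZ. In Ccnd2 the 5 NestinTK+GCV+ mice lie between 257 and 420 CPM, and the lowest point of all, at 190 CPM, is a NestinTK+PBS+ mouse. Nes and Pax6 rest on few counts.

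The remaining genes of the striatum overlapped between ablated and control mice. Sox2 and Ccnd1 had the narrowest intervals of the 9, with log2 fold changes of -0.01 (95% interval -0.30 to 0.28) and 0.01 (-0.26 to 0.27). Hes5 had 0.09 (-0.28 to 0.45), Hes1 -0.11 (-0.76 to 0.55), Egfr -0.01 (-0.64 to 0.61) and Prom1 -0.26 (-0.78 to 0.26). Hes1, called lower in the SVZ, was at 9.87, 7.98, 11.5, 7.94 and 11.0 CPM in the striatum of the same 5 mice, inside the control range of 2.5 to 17.4 CPM. Among wild-type mice Hes1 was at 4.35, 2.5 and 10.6 CPM with GCV and at 13.3, 6.98 and 13.1 CPM with the vehicle (log2 fold change -0.91 ± 0.407, edgeR, adjusted p = 0.261), not called where 2.46% of all genes were. With 1 mouse left out this log2 fold change ran from -1.69 (without NestinTK-GCV+ replicate 3) to -0.55 (without NestinTK-GCV+ replicate 2). The fit at -1.69 (edgeR, adjusted p = 0.0358) was the 1 of 15 past the call rule. It left NestinTK-GCV+ mice with 16 and 10 counts of Hes1.

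Nes and Pax6 were near the limit of detection in the striatum. Nes had 2 to 15 counts in the ablated libraries and 2 to 31 in the controls, at 2.47, 4.35, 2.59, 0.567 and 4.99 CPM against 0.738 to 8.43 CPM. All 5 ablated mice were below the control median of 5.01 CPM, and the log2 fold change was -0.68 ± 0.458 (edgeR, adjusted p = 0.638). The lowest of the 5 was replicate 4, whose SVZ library was among the 2 rich in Nes. Pax6 had 7 to 14 counts against 5 to 13, at 3.17, 5.08, 2.59, 1.99 and 3.99 CPM against 1.09 to 3.07 CPM (log2 fold change 0.73 ± 0.377, edgeR, adjusted p = 0.516). Ablated replicates 1, 2 and 5 were above every control in Pax6. Between the vehicle groups of the striatum edgeR called none of the 9, where 0.830% of all genes were called, and none for the interaction, where 3.28% were. None of the 9 had an unadjusted p under 0.05 in either, where 988 and 2324 of the 15419 genes tested did. DESeq2 and limma-voom called none of the 9.

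The pathways around these genes were described by lists drawn up with earlier results of these data known. In the SVZ of the ablated mice none of 30 Notch pathway genes was called, with 18 lower and 12 higher and a median log2 fold change of -0.11. Those with the lowest p were Maml2, a coactivator of Notch transcription, at -1.58 ± 0.582 (edgeR, adjusted p = 0.385), and Rfng, a glycosyltransferase that modifies Notch, at 0.58 ± 0.256 (adjusted p = 0.466). None of the 18 tested genes of the EGF receptor pathway was called (8 lower, 10 higher, median 0.20), and the ligand Hbegf had the lowest p at 0.84 ± 0.388 (edgeR, adjusted p = 0.497). None of 19 tested G1 cyclin, kinase and inhibitor genes was called (13 lower, median -0.21). Cdk4, the kinase that pairs with D cyclins, had -0.79 ± 0.329 (edgeR, adjusted p = 0.435), and the inhibitor Cdkn1c, which choroid plexus also expresses, -3.86 ± 1.53 (adjusted p = 0.415). Of 21 tested stem cell regulators none was called (14 lower, median -0.22). Foxo3, a transcription factor of stem cell quiescence, had 0.57 ± 0.180 (edgeR, adjusted p = 0.357), past the p threshold but under 2-fold. In the striatum none of these 4 lists held a called gene in this comparison.

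The 9 genes can be set beside lists for each stage of the lineage, also drawn up with earlier results of these data known. The neuroblast list holds Igfbpl1, which the paper names among the main genes lowered in these SVZ samples. These lists are therefore a description and not an independent yardstick. Over all genes tested in this comparison, 1.22% were called lower and 0.373% higher. Markers of quiescent stem cells, which parenchymal astrocytes share, held no called gene among 19 in the SVZ of the ablated mice and summed to 5465 to 8526 CPM against 5227 to 8264 CPM. Markers of activated and transit-amplifying cells had 12 of 15 lower and 2 called lower, Dlx1 and Gsx2, at sums of 81.9 to 121 CPM against 118 to 258 CPM. Neuroblast markers had 14 of 17 lower and 6 called, but their sums of 1064 to 1247 CPM lay inside the control range of 945 to 1702 CPM. Genes of dividing cells had 24 of 25 lower and 5 called, at sums of 26.4 to 105 CPM against 90.6 to 247 CPM. The median log2 fold changes of these 4 lists were -0.07, -1.40, -0.58 and -2.28. Beside them, the 9 genes had 5 of 9 lower and a median of -0.09. Markers of tissue outside the lineage also moved in this comparison: all 10 choroid plexus markers were lower and 6 were called (152 to 443 CPM against 181 to 113770 CPM, with Aqp1 and Slc4a5 at 0 in the NestinTK-GCV+ mice), and all 15 ependymal markers tested were lower and 1 was called (109 to 418 CPM against 130 to 492 CPM). Without the 3 libraries rich in Ttr the log2 fold changes of Hes1 and Ccnd2 were -2.23 and -0.64, and Hes1 was no longer called.

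Correlations between the 9 genes differed with the mice included. Over the 36 pairs of members, Pearson's r of log2 CPM across the 15 SVZ libraries had a median of 0.145 and ran from -0.374 to 0.637, and in the striatum the median was 0.0175 with a range from -0.630 to 0.523. Without NestinTK+PBS+ replicate 4 the striatal range was -0.635 to 0.513. The highest SVZ value was that of Sox2 and Hes5. Over the 10 SVZ controls alone the median was 0.0961 and the range wider, from -0.715 for Ccnd1 and Ccnd2 to 0.872 for Sox2 and Hes5. In these controls 5 pairs had an r over 0.7, the others being Hes5 and Ccnd2 (0.802), Nes and Sox2 (0.776), Sox2 and Ccnd2 (0.727) and Sox2 and Prom1 (0.716). Over the 10 striatal controls the range was -0.807 to 0.644. These correlations describe libraries that share depth and dissection effects. Among 13581 protein-coding or untyped genes of the SVZ with a mean of at least 1 CPM, those most like Hes1 across the 15 libraries were Rapgef3, Lims2 and Carmil1 (r = 0.870, 0.869 and 0.856), and those most like Ccnd2 were Maats1, Derl2 and Gas2l3 (r = 0.840, 0.835 and 0.833). For Nes they were Ctu1, Tor1b and Ndufs6 (r = 0.911, 0.882 and 0.882). In the striatum 120 genes had an r over 0.8 with Ccnd2, led by Ppp1r16b, Cacnb1 and Ppp1ca (r = 0.939, 0.925 and 0.922). Without the library low in medium spiny neuron markers, an alternative chosen after seeing the data, as for the range above, 46 genes had an r over 0.8 with Ccnd2 and the same 3 genes had r = 0.915, 0.848 and 0.854.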

How the data were processed

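RNA of the SVZ was amplified with the SMART-Seq v4 Ultra Low Input kit and RNA of the striatum was prepared with the QuantSeq 3′ FWD kit. The deposited values are raw counts per gene, which the authors made by trimming with Trimmomatic (0.36 in the labels), aligning to mm10 with STAR 2.5.3a and counting on Gencode M16 with featureCounts; the strand setting is not given in the sources used here. Whole-transcript and 3′ counts are not comparable, so each tissue was analysed apart. Genes with over 1 CPM in at least 3 libraries were fitted with edgeR's quasi-likelihood test (TMM factors), ablated against pooled controls, then as 4 groups. CPM are scaled by TMM, and log2 CPM use a prior count of 2. Pairs were not blocked within a tissue, since its groups share no mouse. A gene was called at p of at most 0.01 and at least 2-fold, with adjusted p from Benjamini-Hochberg over all genes tested. Limma-voom, DESeq2, other scalings, filters, controls and single mice left out were alternatives. The code was tested on simulated data. The members and lists were chosen with earlier results of these data known. All 9 genes are named; from each list up to 4 called genes, or the 2 with the lowest p, could be named, and for likeness the 3 with the highest r. Exons and positions are from Gencode M21 (mm10) and upstream sequence from RefSeq, where 6 of the 9 matched. Versions were edgeR 4.0.16, limma 3.58.1 and DESeq2 1.42.0.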

Additional observations from a re-analysis of the deposited data

Results flagged for a closer look

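Over 54 sets of a gene, tissue and group (the pooled controls included), 6 held a library far from the rest of its group by Dixon's test, where chance gives about 1 in 20, or 2.7. In the SVZ, Hes5 was at 6.20 CPM in NestinTK+GCV+ replicate 5 against 29.0 to 50.8 CPM in the other 4. In the striatum, NestinTK+PBS+ replicate 4, the library low in medium spiny neuron markers, gave 3 of the 6: Hes5 at 54.7 CPM against 93.4 to 94.5 CPM in its group, and Ccnd2 at 190 CPM, against 449 to 535 CPM in its group and against 399 to 547 CPM in the other 9 controls. Nes was at 0.738 CPM (2 counts) in NestinTK+PBS+ replicate 2 against 5.01 to 6.56 CPM, and Ccnd1 at 79.2 CPM in NestinTK+PBS+ replicate 3 against 105 to 111 CPM. The GCV effects on Hes5 in the SVZ had the clearest difference between genotypes, with an interaction of 2.20 on the log2 scale (edgeR, adjusted p = 0.942), the 1 of 18 interactions tested with an unadjusted p under 0.05. Over all genes tested, 833 of 16375 in the SVZ and 2324 of 15419 in the striatum had such a p for the interaction.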

How the results depend on the processing

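No paired analysis was possible because the groups share no mice within a tissue. With scaling, filter, tool, controls or mice changed, Hes1 was lower in the ablated SVZ throughout (log2 fold changes -3.25 to -2.08, adjusted p 0.0312 to 0.999), but the count of members called went from 1 to 0 with each control group alone, without the 3 Ttr-rich libraries and with adjusted p under 0.05 as the rule, and was 0 to 1 when mice were left out. For Hes5 the count fell to 0 in wild-type GCV against vehicle with limma-voom and by adjusted p, and rose to 1 in ablated against NestinTK-GCV+ with DESeq2 and with no filter. DESeq2 also gave 1 against NestinTK+PBS+ (Hes1) and for the interaction (Hes5). Left-out mice moved the count in each of these comparisons, and in the striatum those of ablated against NestinTK-GCV+ and wild-type GCV against vehicle, between 0 and 1. The cause was not tested.

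Genes called lower in the SVZ, 199, became 409 with DESeq2, 95 with limma-voom, 34 and 124 against NestinTK-GCV+ and NestinTK+PBS+ alone, 127 with the mean of the control groups, 131 with the mouse number series as a term, 109 without Ttr-rich libraries and 130 to 231 with mice left out. Those higher, 61, became 40 with library totals, 1081 with no filter, 40 and 34 against the same groups, 164 with the mean of the control groups and 96 with Ttr as a term. In the striatum those lower, 37, became 19 with limma-voom, 56 with no filter, 58 and 83 against the same groups, 89 with the series term and 23 to 50 with mice left out. Those higher, 70, became 171, 274, 307 and 106 in the first 4 of these, 122 against NestinTK-PBS+ alone, 125 with the mean of the control groups and 44 to 82 with mice left out.

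No sign turned in a value past the threshold. In the SVZ they were Egfr (-0.036 with library totals, -0.0057 with limma-voom, -0.26 against NestinTK-PBS+), Sox2 (0.36 against NestinTK-GCV+), Hes5 (-0.33 against NestinTK-PBS+) and Ccnd1 (-1.02 with limma-voom, -0.27 against NestinTK-GCV+). In the striatum they were Egfr (0.038 with totals, 0.23 against NestinTK-GCV+, 0.0026 with the group mean, 0.10 with the series term), Sox2 (0.038 with totals, 0.00011 with limma-voom, 0.0015 with a filter of 10 counts, 0.036 against NestinTK+PBS+), Hes1 (0.068 with limma-voom, 0.69 against NestinTK-GCV+, 0.015 with the group mean, 0.0012 with the series term), Hes5 (-0.16 against NestinTK-GCV+, -0.033 with the series term) and Ccnd1 (-0.0086 and -0.030 against the vehicle groups, -0.087 with the series term). With mice left out, Egfr ran from -0.079 to 0.31 and Ccnd1 from -1.10 to 0.59 in the SVZ, and in the striatum Egfr from -0.15 to 0.16, Sox2 from -0.072 to 0.071, Hes1 from -0.22 to 0.0019 and Ccnd1 from -0.056 to 0.074. Nes and Pax6 in the striatum, and Hes1 and Nes in ablated SVZ libraries, rest on few counts.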
